A study of Homo sapiens with 12 samples.

Results

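Krüppel-like factors (KLFs) are transcription factors that bind GC-rich and CACCC sequences through a conserved block of zinc fingers at their carboxyl end. The members differ in the part outside the fingers, through which KLF3 recruits the corepressor CtBP, KLF9, KLF10, KLF11, KLF13 and KLF16 recruit the SIN3A corepressor, and KLF4, KLF5, KLF6 and KLF15 act mainly, though not always, as activators. In liver, KLF15 is known for its part in amino acid breakdown and gluconeogenesis, and several other members respond to hormones, growth factors or time of day. The 10 genes described here, KLF3, KLF4, KLF5, KLF6, KLF9, KLF10, KLF11, KLF13, KLF15 and KLF16, were chosen by name from the 17 KLF genes among the 26364 genes of the count table. Earlier results of these data were known at that choice. All 10 passed the filter on low counts, as did 13852 genes in all, but KLF4 was too low to judge.

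The samples were HepG2 cells, an established line from a human hepatocellular tumour, and no genotype other than that of the line is named in the labels used here. Insulin was given for 0, 5, 10, 30 or 240 min, each time was covered by 2 RNA-seq libraries, and the question was how mRNA levels moved after insulin. No library kept without insulin was matched to the later times. An effect of insulin and one of the time elapsed therefore cannot be told apart. The study's methods state that the RNA-seq was done once, and describe its samples as biologically independent. The treatment text of every library, those at 0 min included, reads 3 nM insulin and 5 min, so the times used here are those of the library titles, and the dose at each time is not given more closely. A single ChIP-seq library against the insulin receptor (IR), with an input library, was made from HepG2 cells labelled with the same treatment.

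Reads on genes totalled 18347109 to 45005769 per library, and 1.59% to 2.36% of counts fell on 92 spike-in RNAs, with the highest share in replicate 2 at 10 min. The line showed its hepatocyte markers throughout, with ALB, which encodes albumin, at 13890 to 20350 CPM (counts scaled to library size). Of the other-cell markers, PTPRC had 0 counts in every library, CD3E had 0 to 1, COL3A1 had 1 to 7, and 0 of the 3 that were tested (PECAM1, VWF, COL1A1) passed the test at any time against 0 min. In bulk RNA, fewer cells with a transcript and less of it per cell cannot be told apart. Below, a difference was called when its Benjamini-Hochberg adjusted p over all 13852 genes was under 0.05 in edgeR's quasi-likelihood test, and "rose" and "fell" are used only of called differences. The scaling was TMM, a method that assumes most genes hold their level, and values of a gene between times are given in CPM.

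Over the 5 times, 6 of the 10 genes differed (KLF6, KLF9, KLF10, KLF11, KLF15 and KLF16), against 38.3% of all genes tested. KLF10 and KLF11 rose by 30 min. By 240 min KLF10 and KLF16 were above their level at 0 min, and KLF11 and KLF15 were below it. From 30 to 240 min KLF6, KLF13 and KLF16 rose and KLF9, KLF11 and KLF15 fell. Adjusted p in the test of any difference ran from 1.92e-05 for KLF11, 0.000105 for KLF16 and 0.00131 for KLF15 to 0.0507 for KLF13, 0.124 for KLF3, 0.506 for KLF5 and 0.848 for KLF4 (edgeR). In this test the call for KLF16 was kept in 11 of 11 other analyses. That for KLF11 was lost with spike-in scaling (adjusted p = 0.268, edgeR), and that for KLF15 with limma on TPM and no filter (adjusted p = 0.0508). KLF6, KLF9 and KLF10 each passed in 7 of 11.

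**Figure D1:**
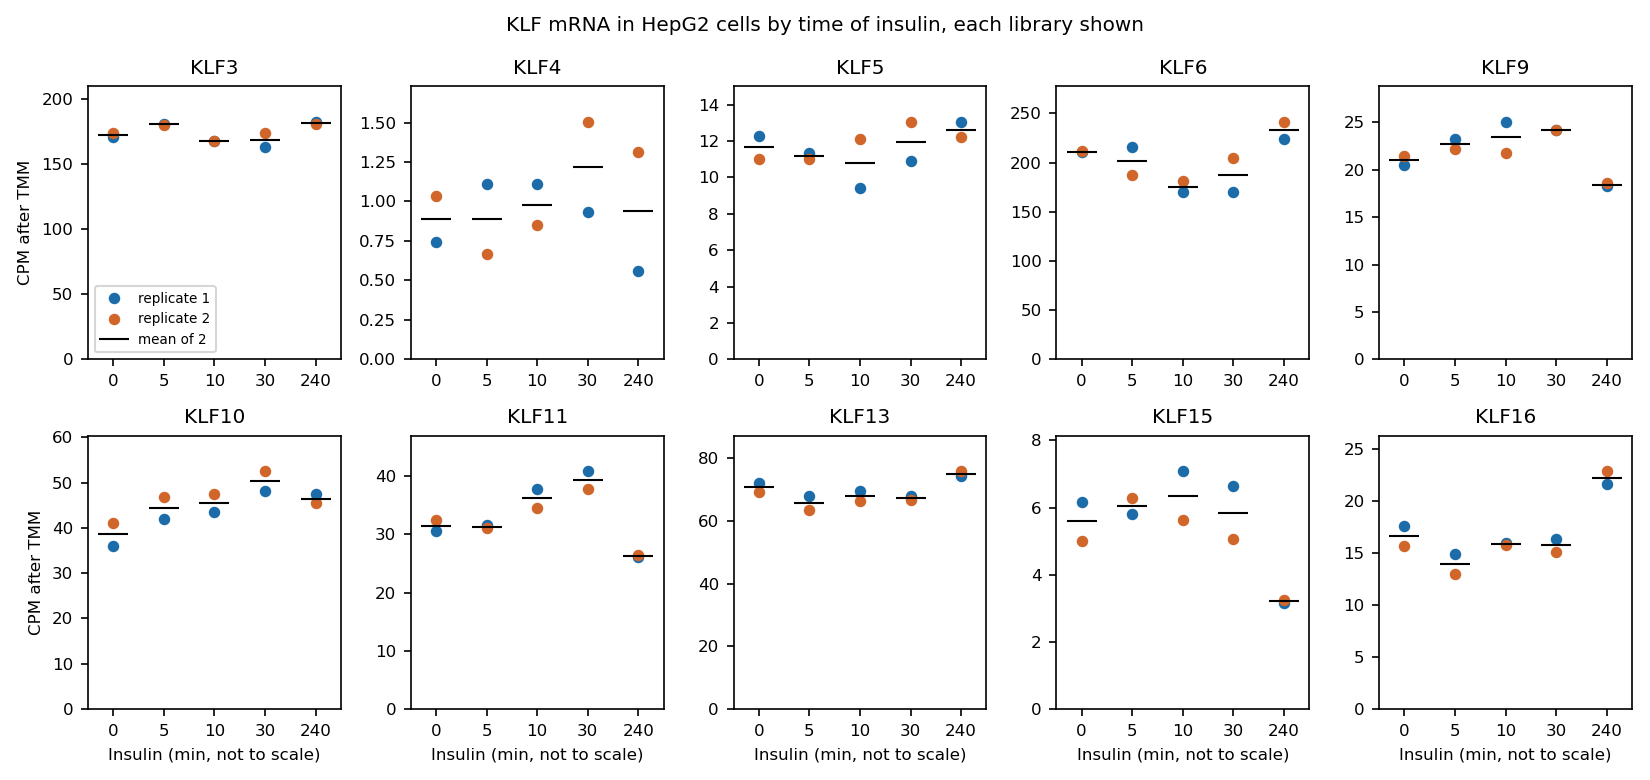
Level of each KLF gene in CPM (vertical axis, from 0) at each time of insulin in min (horizontal axis, evenly spaced and not to scale). Points are the 2 libraries of a time and bars their mean; KLF15 at 240 min lies at 3.16 and 3.26 CPM, below its 8 other libraries, and KLF16 at 21.6 and 22.8, above its 8 other libraries.

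Levels were compared between genes per transcript length, in StringTie TPM, as the mean over the 10 libraries. KLF6 stood first with 108.4 TPM (range 90.6 to 133.0), followed by KLF3 with 77.0 (71.4 to 82.3), KLF10 with 36.8 (28.8 to 44.1) and KLF13 with 25.4 (22.9 to 28.5). These 4 did not overlap over the libraries. Below them the neighbours in the order overlapped down to KLF15. KLF11 had 20.2 TPM (16.1 to 24.9), KLF16 14.6 (11.1 to 20.3), KLF9 10.5 (8.83 to 12.0), KLF5 8.14 (6.59 to 9.27) and KLF15 5.31 (3.15 to 6.92). KLF4 came last with 0.843 TPM (0.476 to 1.31), apart from all others.

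**Figure D2:**
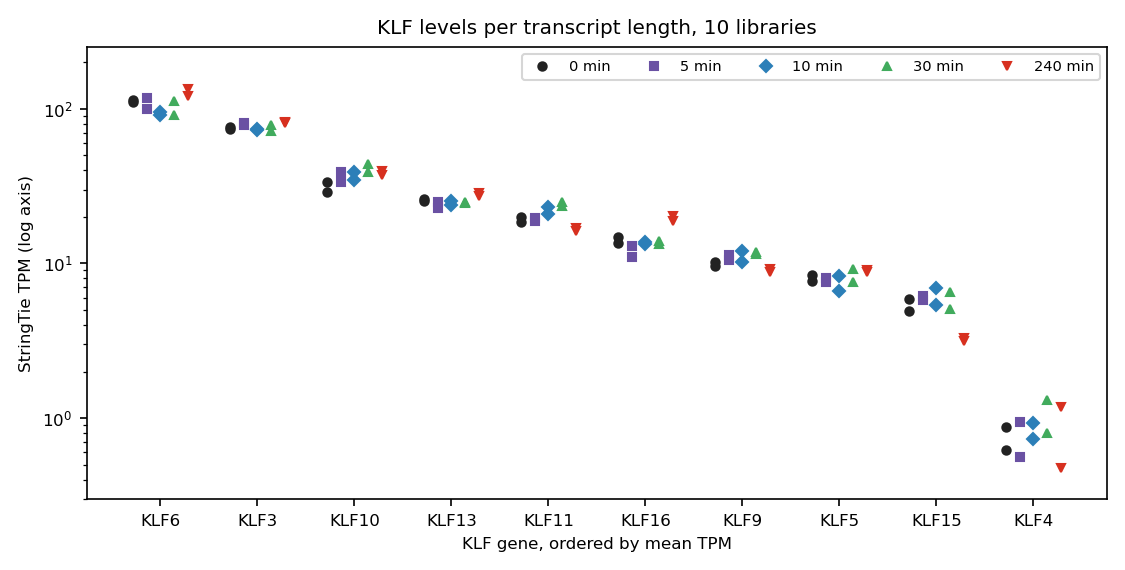
Level of each KLF gene in TPM (log axis) in each of the 10 libraries, with genes ordered by their mean and symbols and colours marking the time. KLF6, from 90.6 to 133.0 TPM, lies above every other gene in all libraries, and KLF4, at most 1.31 TPM, below every other gene.

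KLF3, known as a CtBP-dependent repressor in blood and fat cells, had 170.4 and 173.5 CPM (0 min), 180.6 and 179.8 (5 min), 167.2 and 167.5 (10 min), 162.8 and 173.8 (30 min) and 182.3 and 180.4 (240 min). Its libraries at 240 min lay above those at 0 min by a narrow margin. The log2 fold change at 240 min was 0.076 (SE 0.047) with an adjusted p of 0.205 (edgeR), and this difference was not called. The gene lies on chr4:38665790-38703129 (hg19, forward strand). Its antisense transcript KLF3-AS1 had 3 to 10 counts and was not tested. The counting was set to reverse strand, so reads of the 2 strands were counted apart.

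KLF10 and KLF11 are known as early genes of transforming growth factor beta (TGF-beta) signalling, and human variants in KLF11 are linked to an inherited form of diabetes. KLF10 had 36.1 and 41.02 CPM (0 min), 42.0 and 46.9 (5 min), 43.5 and 47.6 (10 min), 48.2 and 52.5 (30 min) and 47.4 and 45.4 (240 min). Both libraries of every later time lay above both at 0 min. KLF10 rose by 30 min with a log2 fold change of 0.37 (SE 0.073, adjusted p = 0.0284, edgeR), and was higher at 240 min than at 0 min by 0.26 (SE 0.074, adjusted p = 0.00905, edgeR). At 5 and 10 min its log2 fold changes of 0.19 and 0.23 were not called, with adjusted p of 0.286 and 0.661 (edgeR), and with scaling by the spike-ins that at 10 min was -0.095. From 30 to 240 min the log2 difference was -0.11 (SE 0.074, adjusted p = 0.257, edgeR), which was not called.

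The calls for KLF10 at 30 and at 240 min each passed in 8 of 12 other analyses, and were lost with spike-in scaling (adjusted p = 0.911 and 0.7, edgeR) and in the 3 limma fits on TPM. They also rested on few libraries. Without replicate 1 at 0 min the adjusted p was 0.49 at 30 min, 0.106 at 240 min and 0.0689 over the 5 times (edgeR). The call at 30 min was also lost without replicate 2 at 30 min, and that at 240 min without replicate 1 at 240 min, where the adjusted p was 0.0833 (edgeR).

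KLF11 had 30.5 and 32.4 CPM (0 min), 31.6 and 31.0 (5 min), 37.8 and 34.5 (10 min), 40.8 and 37.7 (30 min) and 26.0 and 26.5 (240 min). The libraries at 10 and 30 min lay above those at 0 min, and those at 240 min lay below every other library. KLF11 rose by 30 min with a log2 fold change of 0.32 (SE 0.067, adjusted p = 0.0449, edgeR). It fell by 0.58 on the log2 scale from 30 to 240 min (SE 0.071, adjusted p = 2.37e-06, edgeR), to a level under that at 0 min, with a log2 fold change of -0.27 (SE 0.071, adjusted p = 0.00496, edgeR). The fall from 30 to 240 min passed the test in 12 of 12 other analyses and in 10 of 10 fits with a library left out. The highest adjusted p in those other analyses (edgeR, DESeq2 or limma) was 0.0489, just under the threshold of 0.05. The rise at 30 min passed in 6 of 12 and in 2 of 10, and was lost on leaving out any 1 of the 8 libraries at 0, 5, 10 and 30 min, with an adjusted p of up to 0.52 (edgeR). The difference of 240 min from 0 min passed in 9 of 12 other analyses, and was lost with spike-in scaling (adjusted p = 0.24, edgeR) and in 2 limma fits on TPM (adjusted p = 0.0505 and 0.0698). It was also lost without replicate 2 at 0 min, where the adjusted p was 0.0813 (edgeR).

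RefSeq lists 2 promoters of KLF11 (GRCh38.p14, forward strand, 250 bases before to 50 after the start). They are shown because KLF11 changed in both directions. Capitals mark an E-box (CACGTG), the site of basic helix-loop-helix factors, in the first and a cyclic AMP response element (TGACGTCA) in the second. The first lies on chr2:10043579-10043878 and the second on chr2:10043971-10044270.
KLF11 promoter, first: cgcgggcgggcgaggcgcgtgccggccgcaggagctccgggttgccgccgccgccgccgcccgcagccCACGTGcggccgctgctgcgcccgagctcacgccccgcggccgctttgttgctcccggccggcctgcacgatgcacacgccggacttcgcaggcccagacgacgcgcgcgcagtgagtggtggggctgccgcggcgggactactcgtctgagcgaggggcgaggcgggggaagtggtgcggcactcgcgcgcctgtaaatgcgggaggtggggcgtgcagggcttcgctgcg
KLF11 promoter, second: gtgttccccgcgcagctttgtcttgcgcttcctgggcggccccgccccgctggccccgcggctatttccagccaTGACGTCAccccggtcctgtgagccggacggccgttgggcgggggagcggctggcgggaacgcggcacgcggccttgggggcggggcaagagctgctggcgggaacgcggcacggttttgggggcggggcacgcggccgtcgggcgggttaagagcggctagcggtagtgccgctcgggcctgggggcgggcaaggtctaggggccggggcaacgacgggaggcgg

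KLF9, a glucocorticoid- and thyroid hormone-responsive repressor, had 20.6 and 21.5 CPM (0 min), 23.3 and 22.2 (5 min), 25.1 and 21.8 (10 min), 24.2 and 24.2 (30 min) and 18.3 and 18.6 (240 min). Its libraries at 240 min lay below every other library. KLF9 fell from 30 to 240 min by 0.39 on the log2 scale (SE 0.082, adjusted p = 0.000825, edgeR), and this passed in 10 of 10 fits with a library left out and in 11 of 12 other analyses. It was lost with spike-in scaling (adjusted p = 0.297, edgeR). Against 0 min, the log2 fold change of 0.20 at 30 min (SE 0.078, adjusted p = 0.496, edgeR) and that of -0.19 at 240 min (SE 0.082, adjusted p = 0.0648, edgeR) were not called. Over the 5 times the adjusted p was 0.00493, and 0.0526 without replicate 1 at 240 min (edgeR), and this call was lost in 4 of 11 other analyses (spike-in scaling and the 3 limma fits).

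KLF13, first known as a regulator of the chemokine CCL5 in T cells, had 72.2 and 69.3 CPM (0 min), 67.9 and 63.5 (5 min), 69.7 and 66.3 (10 min), 68.0 and 66.6 (30 min) and 74.4 and 75.8 (240 min). It rose from 30 to 240 min by a log2 difference of 0.16 (SE 0.054, adjusted p = 0.0276, edgeR). This was the smallest called difference among the 10 genes, and it was lost without any 1 of the 4 libraries at 30 and 240 min, with an adjusted p of 0.0678 to 0.114 (edgeR). It also failed in 6 of 12 other analyses, among them DESeq2 (adjusted p = 0.0818), the edgeR fit of only the times compared (adjusted p = 0.0631) and spike-in scaling (adjusted p = 0.751). At 240 min against 0 min its log2 fold change was 0.088 (SE 0.053, adjusted p = 0.195, edgeR).

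KLF16, a widely expressed SIN3A-binding member, had 17.5 and 15.7 CPM (0 min), 14.9 and 13.0 (5 min), 15.9 and 15.7 (10 min), 16.3 and 15.1 (30 min) and 21.6 and 22.8 (240 min). Only the libraries at 240 min lay above both at 0 min. KLF16 rose by 240 min, to 22.2 ± 0.871 CPM from 16.6 ± 1.30 (SD, n = 2 each), with a log2 fold change of 0.43 (SE 0.088, adjusted p = 0.000627, edgeR) against 0 min and of 0.49 (SE 0.091, adjusted p = 0.000252, edgeR) against 30 min. Both passed in 10 of 10 fits with a library left out and in 11 of 12 other analyses. They were not called with spike-in scaling, where the log2 fold changes were 0.30 (adjusted p = 0.398, edgeR) and 0.50 (adjusted p = 0.121, edgeR).

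The promoter of KLF16 (chr19:1863530-1863829, GRCh38.p14, reverse strand) is shown for its GC boxes, the type of site that SP factors and KLFs bind. Capitals mark GGGCGG or its reverse complement CCGCCC, with 7 matches counting overlaps.
KLF16 promoter: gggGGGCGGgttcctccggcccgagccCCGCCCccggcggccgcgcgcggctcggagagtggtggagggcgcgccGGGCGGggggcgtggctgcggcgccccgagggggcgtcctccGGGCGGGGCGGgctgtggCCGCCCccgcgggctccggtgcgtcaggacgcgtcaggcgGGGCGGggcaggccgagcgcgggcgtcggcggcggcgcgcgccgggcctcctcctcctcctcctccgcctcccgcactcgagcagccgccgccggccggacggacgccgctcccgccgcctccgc

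KLF15 showed the largest difference of the 10 genes. It had 6.17 and 5.01 CPM (0 min), 5.82 and 6.27 (5 min), 7.07 and 5.62 (10 min), 6.64 and 5.05 (30 min) and 3.16 and 3.26 (240 min), which were 62 to 223 counts per library. Its 8 libraries from 0 to 30 min overlapped between times, and the pair at 240 min lay below all of them. KLF15 fell by 240 min to 3.21 ± 0.0720 CPM from 5.59 ± 0.823 (SD, n = 2 each), with a log2 fold change of -0.77 (SE 0.18, adjusted p = 0.00174, edgeR) against 0 min and of -0.89 (SE 0.18, adjusted p = 0.000631, edgeR) against 30 min. Both passed in 12 of 12 other analyses, spike-in scaling included, and in 10 of 10 fits with a library left out. With a library left out, the log2 fold change against 0 min ran from -0.95 to -0.65.

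KLF6, found early in activated stellate cells of the liver and described as a tumour suppressor, was the most abundant of the 10. It had 210.3 and 211.3 CPM (0 min), 215.8 and 187.5 (5 min), 169.9 and 180.9 (10 min), 169.8 and 204.4 (30 min) and 224.2 and 241.6 (240 min). Both libraries at 10 and at 30 min lay below those at 0 min, and both at 240 min above them. KLF6 rose from 30 to 240 min with a log2 difference of 0.32 (SE 0.074, adjusted p = 0.00192, edgeR). The 2 libraries at 30 min stood far apart, and without replicate 1 at 30 min this difference was 0.19 with an adjusted p of 0.0681 (edgeR). It passed in 10 of 12 other analyses, and was lost with spike-in scaling (adjusted p = 0.36, edgeR) and with limma and no filter (adjusted p = 0.0819). At 10 min its log2 fold change of -0.27 (SE 0.073) had an unadjusted p of 0.00176 and an adjusted p of 0.349 (edgeR), and was not called. At 240 min against 0 min it was 0.14 (SE 0.073, adjusted p = 0.126, edgeR).

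The promoters of KLF6 (chr10:3785160-3785459) and KLF15 (chr3:126357359-126357658, both GRCh38.p14, reverse strand) each hold a single E-box, shown in capitals, as does the first KLF11 promoter.
KLF6 promoter: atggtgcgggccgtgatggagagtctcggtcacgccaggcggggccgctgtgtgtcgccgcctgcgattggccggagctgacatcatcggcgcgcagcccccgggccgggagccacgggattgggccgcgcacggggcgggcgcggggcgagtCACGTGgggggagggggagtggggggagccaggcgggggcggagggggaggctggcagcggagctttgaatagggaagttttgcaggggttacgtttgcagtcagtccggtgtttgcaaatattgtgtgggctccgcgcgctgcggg
KLF15 promoter: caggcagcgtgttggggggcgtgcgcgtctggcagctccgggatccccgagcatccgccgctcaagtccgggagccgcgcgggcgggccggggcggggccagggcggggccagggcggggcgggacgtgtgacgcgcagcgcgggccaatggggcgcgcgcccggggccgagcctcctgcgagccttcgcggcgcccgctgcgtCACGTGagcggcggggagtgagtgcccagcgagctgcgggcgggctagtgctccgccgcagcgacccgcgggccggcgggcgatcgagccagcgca

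KLF5, known in epithelial growth and fat cell formation, had 12.3 and 11.02 CPM (0 min), 11.4 and 11.01 (5 min), 9.45 and 12.1 (10 min), 10.9 and 13.1 (30 min) and 13.0 and 12.2 (240 min). Its libraries overlapped with those at 0 min at every time. The log2 fold change at 240 min was 0.13 (SE 0.12, adjusted p = 0.392, edgeR).

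KLF4, a factor used to reprogram cells to pluripotency, had 0.742 and 1.03 CPM (0 min), 1.11 and 0.670 (5 min), 1.11 and 0.852 (10 min), 0.933 and 1.51 (30 min) and 0.560 and 1.32 (240 min). These were 14 to 46 counts per library, and the pair at 240 min alone spanned nearly the whole range. The standard error of its log2 fold changes against 0 min was 0.35 to 0.38, so that a change of the size seen for KLF10 or KLF11 was not detectable at this depth.

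The times can be read together as follows. At 5 min 0 of the 10 genes were called by edgeR, against 0% of all genes higher and 0% lower, with 2 of the 10 at an unadjusted p under 0.05, and 0 were called by DESeq2. At 10 min 0 were called, with 3 at an unadjusted p under 0.05 and 0 by DESeq2, against 0.0433% of all genes higher and 0.0938% lower, and KLF6 was called lower with no filter on low counts or with only these times in the model. At 30 min 2 of 10 were higher and 0 lower, against 0.188% and 0.144% of all genes. The 10 were chosen with earlier results of these data known, so this count is only a description beside those shares. With spike-in scaling and in the 3 limma fits on TPM, 0 of the 10 were called at 30 min. Between 10 and 30 min 0 were called, with 0 at an unadjusted p under 0.05 and 0 by DESeq2, against 0.00722% of all genes higher and 0% lower.

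At 240 min against 0 min 2 of 10 were higher and 2 lower, close to the 20.6% and 20.4% of all genes, so that this count is not particular to the KLF genes. The median log2 fold change of the 10 was 0.082, against -0.0026 over all genes. Without regard to sign, the median was 0.17 for the 10 genes, under the 0.20 for all genes. Against 30 min 3 of 10 were higher and 3 lower, against 19.8% and 18.4% of all genes. The median absolute log2 difference from 30 to 240 min was 0.36 for the 10 genes and 0.20 for all genes. Comparisons with 0 min share its 2 libraries, and both later comparisons share those at 240 min.

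Scaling by the spike-ins moved the median log2 fold change of all genes by -0.083 at 5 min, -0.33 at 10 min, -0.13 at 30 min and -0.12 at 240 min against 0 min, and by 0.013 from 30 to 240 min. With it, 0 of the 10 genes were called at 30 min, KLF15 alone at 240 min against 0 min (0 higher, 1 lower), and KLF11 and KLF15 from 30 to 240 min (0 higher, 2 lower). The log2 fold changes of KLF10 and KLF11 at 30 min were then 0.25 and 0.19, and the called differences named above all kept their sign.

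**Figure D3:**
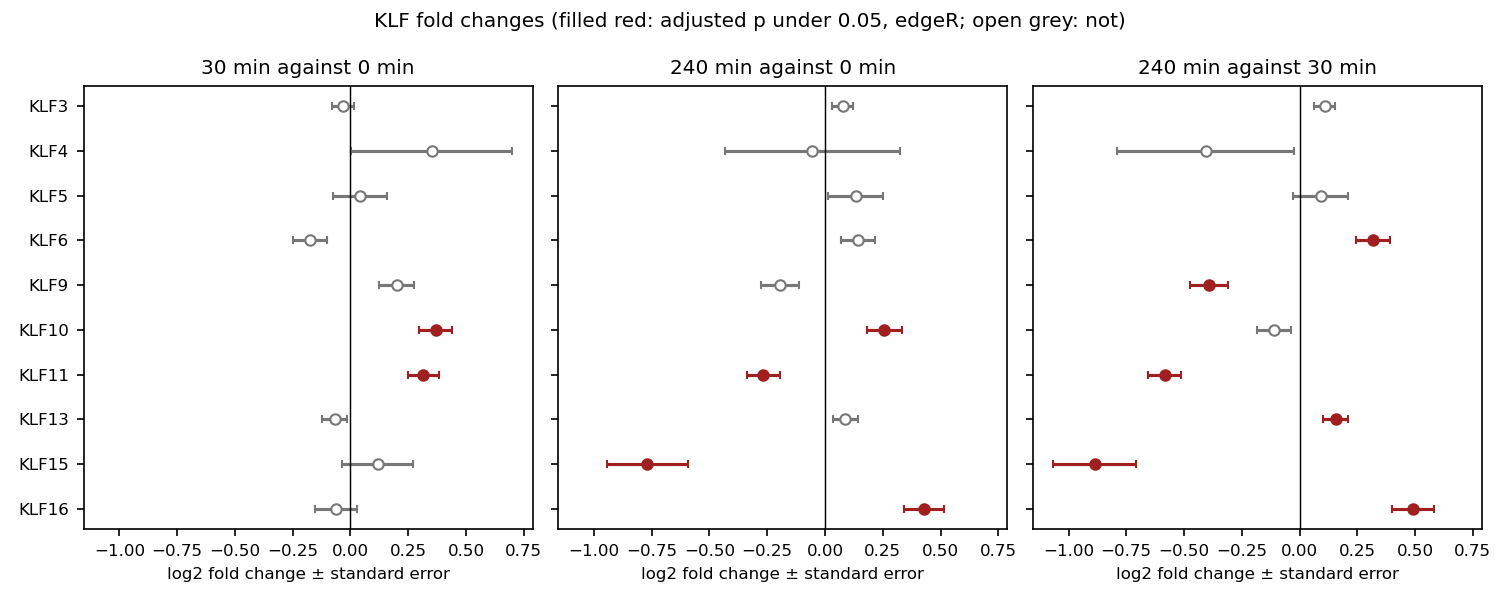
Log2 fold change of each KLF gene (horizontal axis) with its standard error as a bar, in 3 comparisons of times with 2 libraries each. Filled red points passed an adjusted p of 0.05 in edgeR and open grey ones did not; KLF15 lies farthest to the left at -0.77 and -0.89, and KLF11 lies at 0.32, -0.27 and -0.58.

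Among KLF genes outside the 10, KLF7 and KLF12 were tested. KLF7, an activator known from neurons and fat, had 5.61 and 5.41 CPM at 0 min and 8.995 and 9.728 at 240 min, and rose with a log2 fold change of 0.76 (SE 0.13, adjusted p = 7.2e-05, edgeR). KLF12, a CtBP-binding repressor like KLF3, had 16.1 and 16.3 CPM at 0 min and 12.4 and 12.2 at 240 min, and fell with a log2 fold change of -0.39 (SE 0.092, adjusted p = 0.00207, edgeR). KLF1, KLF2, KLF8, KLF14 and KLF17 had 0 to 7 counts in each library and were too low to test. Of the related SP factors, 6 of 9 were tested and 1 was called at 240 min. SP4 had 12.2 and 10.7 CPM at 0 min and 13.6 and 14.1 at 240 min and rose by 0.29 on the log2 scale (adjusted p = 0.0261, edgeR), whereas SP1 and SP5 had log2 fold changes of -0.083 and 0.077 and were not called.

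The mRNA of genes for the co-regulators that KLF proteins recruit, and for the ligase subunits that turn them over, was read from the same libraries. The list was chosen with earlier results of these data known, so its counts are only a description. Of 14 such genes, 3 were higher and 9 lower at 240 min against 0 min, beside 20.6% and 20.4% of all genes, 0 were called at 10 or 30 min, and at 240 min the median over the 14 was -0.22 on the log2 scale, against -0.0026 over all genes. SIN3A, the scaffold that KLF9, KLF10, KLF11, KLF13 and KLF16 bind, fell from 124.7 and 121.1 CPM to 101.9 and 96.6 (log2 fold change -0.31, SE 0.049, adjusted p = 5.29e-05, edgeR). The acetyltransferase genes CREBBP and KAT2A fell with log2 fold changes of -0.31 and -0.37 (adjusted p = 0.000104 and 0.000151, edgeR).

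Genes of the pathways tied to single members were counted in the same way. These lists were also chosen with earlier results of these data known, so their counts are only a description beside the shares of all genes. Of 10 TGF-beta early genes, 2 were higher at 10 min (0.0433% of all genes), 3 at 30 min (0.188%), and 4 were higher and 3 lower at 240 min (20.6% and 20.4%). TGIF1, a corepressor of the pathway, fell by 0.62 on the log2 scale at 240 min (adjusted p = 1.19e-07, edgeR), whereas SKIL, which also restrains SMAD proteins, and ID2, an inhibitor of helix-loop-helix factors, rose by log2 fold changes of 0.60 and 0.46 (adjusted p = 1.58e-06 and 0.00034, edgeR). Of 7 glucocorticoid-responsive genes 6 were tested, and 3 were higher and 0 lower at 240 min, again beside 20.6% and 20.4% of all genes. FKBP5 was up by 0.54, PER1 by 0.39 and TSC22D3, at 7 to 21 counts per library, by 1.05 on the log2 scale (adjusted p = 5.23e-07, 0.0236 and 0.0331, edgeR). KLF9, which belongs to the same class of genes, did not pass the test at 240 min against 0 min and had a negative log2 fold change there.

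KLF15 was listed here with target genes of FOXO factors, activators that insulin signalling keeps out of the nucleus. Of 8 other FOXO target genes 7 were tested, and 7 of 7 were lower at 240 min, beside 20.4% of all genes, with a median of -1.32 on the log2 scale, beside -0.0026 over all genes, while 1 was lower at 10 min and 1 at 30 min. IGFBP1, which encodes a binding protein of insulin-like growth factors, fell from 270.1 and 290.2 CPM at 0 min to 36.7 and 39.9 at 240 min (log2 fold change -2.88, SE 0.067, adjusted p = 3.63e-16, edgeR). CCNG2 and TXNIP fell by 1.69 and 0.70 on the log2 scale (adjusted p = 3.35e-11 and 4.73e-08, edgeR). The value of KLF15 over the same interval was -0.77. The FOXO list was chosen with earlier results of these data known, so its count is only a description. A part of FOXO factors in the fall of KLF15 was not tested.

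Of 10 amino acid catabolism genes tied to KLF15, 9 were tested, and 3 were lower and 0 higher at 240 min. With 20.4% of all genes lower and 20.6% higher, this count is not far from that of all genes. GPT2, a mitochondrial alanine transaminase, had 329.4 and 326.3 CPM at 0 min and 186.2 and 183.7 at 240 min, and fell by 0.83 on the log2 scale (SE 0.053, adjusted p = 1.24e-09, edgeR). TAT, tyrosine aminotransferase, fell by 0.80 (SE 0.18, adjusted p = 0.00163, edgeR) and PRODH2, a hydroxyproline dehydrogenase, fell by 0.25 (SE 0.096, adjusted p = 0.048, edgeR). The other 6 tested did not pass, and the median over all 9 was -0.25 on the log2 scale. Of the 9 hepatocyte markers 1 was called at 240 min, HNF4A, which was higher by 0.30 on the log2 scale (adjusted p = 0.000101, edgeR), while ALB had a value of -0.29 (adjusted p = 0.0503, edgeR), and their part in the KLF values was not tested.

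The genes whose log2 CPM ran most like those of the 3 KLF genes with the smallest p over the 5 times were found among 10379 tested genes with at least 5 CPM. For KLF11 they were DDB2 (Pearson r = 0.966), CMBL (0.965) and SLC44A3 (0.954). For KLF16 they were SLC3A2 (0.990), MYBBP1A (0.989) and MRPS26 (0.984), and for KLF15 they were GPSM2 (0.979), PRPSAP1 (0.965) and ACSS3 (0.963). These r are over the same 10 libraries, 2 of them at 240 min, and serve as a description only.

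The IR ChIP-seq gave 1971 peaks (hg19), with a median score of 79. Within the gene body extended by 5 kb, 3 of the 10 KLF genes (KLF3, KLF10 and KLF16) held a peak, against 15.7% of all tested genes with a position, so that each peak is described singly. The score is that of the peak table, and ranks run from the highest score. With 1 library there is no replicate check.

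The KLF3 peak (chr4:38665573-38666281, score 50, rank 1317) spanned the start of the gene, with 3 start sites of KLF3 and 4 of KLF3-AS1 inside it. The KLF10 peak (score 31, rank 1654) overlapped a KLF10 exon with an annotated untranslated part, and held no start site. The peak table places it in exon 1 of 4, 396 bases after the KLF10 start it uses. From the start of the gene as StringTie places it, the midpoint of the peak lay 1923 bases downstream. The KLF16 peak (chr19:1848127-1848771, score 99, rank 856) lay 3627 bases beyond the 3′ end of KLF16 and over the neighbouring gene REXO1, with 2 of its start sites. Only the KLF16 peak was above the median score.

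A peak near KLF9 (chr9:73035043-73035406, score 16, rank 1913) lay 5470 bases upstream of the gene body, outside the 5 kb, and the peak table names KLF9 as its nearest gene. It overlaps an exon of a long noncoding RNA in the annotation. Its central 300 bases (chr9:73035075-73035374, hg19, forward strand) are shown because they hold repeated CACCC letters, marked in capitals, the type of sequence that KLF zinc fingers bind. The whole peak has 5 matches to CACCC or GGGTG and 3 to the GC box. Such letters are common: 59.9% of all 300-base promoters hold the first and 45.0% the second. Their share over peaks was not taken, and binding of a KLF protein here was not tested.
KLF9 upstream peak: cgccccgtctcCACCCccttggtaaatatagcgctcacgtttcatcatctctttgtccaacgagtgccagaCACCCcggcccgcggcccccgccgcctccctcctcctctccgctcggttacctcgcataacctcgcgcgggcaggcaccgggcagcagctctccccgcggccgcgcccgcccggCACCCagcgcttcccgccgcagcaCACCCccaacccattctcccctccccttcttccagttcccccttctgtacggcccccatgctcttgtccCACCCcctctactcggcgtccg

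RefSeq promoters were found for 8 of the 10 genes, all but KLF3 and KLF10, with 10 promoters in all. The motifs were chosen after the sequences were seen, and a match is a description and not a site in use. An E-box was found in 4 of the 10 promoters (those of KLF4, KLF6 and KLF15 and the first of KLF11), and in 7.26% of the 35116 promoters of all genes. A GC box was found in 8 of the 10, with 6 matches in KLF15 and 2 and 7 in the KLF11 promoters, against 45.0% of all promoters. CACCC or GGGTG was found in 4 of the 10 (both of KLF5, the second of KLF11 and that of KLF13), against 59.9% of all promoters. The cyclic AMP response element was in the second KLF11 promoter, against 1.85% of all. The letters TGTTTAC or GTAAACA, read by FOXO factors, were in 3.42% of all promoters and in 0 of these 10, which says only that they are not in these windows.

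**Figure D4:**
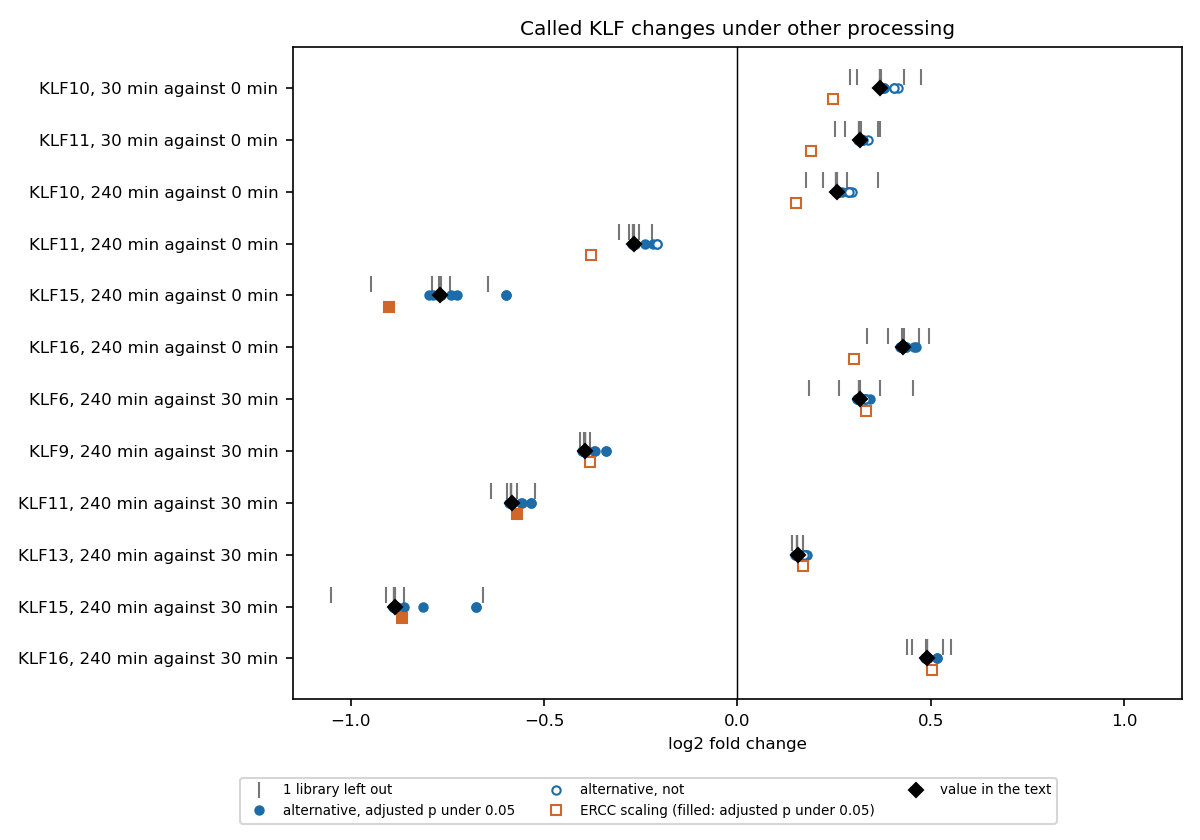
Log2 fold change (horizontal axis) of each called KLF difference in the analysis given in the text (black diamonds), in other analyses (blue circles), with spike-in scaling (orange squares) and with each library left out (grey ticks); filled circles and squares had an adjusted p under 0.05. The 3 falls of KLF11 from 30 to 240 min and of KLF15 against both times are filled throughout, and no point crosses 0.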

How the data were processed

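For the RNA-seq, the authors trimmed single-end reads with Trim Galore 0.6.4, aligned them to hg19 with STAR 2.6.1d, counted them per gene as reverse-stranded with featureCounts 1.6.4 and deposited raw counts. The authors also deposited StringTie TPM. For the IR ChIP-seq, reads were aligned with BWA 0.7.17-r1188, and the authors deposited MACS2 2.2.7.1 peaks with a score, annotated by HOMER. Here, counts of the 10 libraries without the 92 spike-in rows (1.59% to 2.36% of counts) were fitted with edgeR 4.0.16 in R 4.3.3 (TMM, filterByExpr, time as a factor, quasi-likelihood test, no replicate block), and the standard error of a log2 fold change was taken as its size over the root of F. P-values were adjusted over 13852 genes. Alternatives were DESeq2 1.42.0, the likelihood ratio test, other filters and normalizations, spike-in scaling, limma 3.58.1 on TPM, a replicate block and leaving out each library. Counts of replicates differed beyond sampling noise. Deviations of same-numbered replicates correlated at -0.115 to 0.133, so the numbers were not taken to pair libraries. The fit was first tested on simulated counts. Gene positions are those of the StringTie table, features those of GENCODE for GRCh37, and promoters those of RefSeq.

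The KLF genes and the gene lists were chosen with earlier results of these data known. Each of the 10 is described, and of each list the 3 genes with the smallest p at 240 against 0 min are named, with the 3 genes most like each of the 3 KLF genes with the smallest p over all times.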

Additional observations from a re-analysis of the deposited data

How the results depend on the processing

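Of the 12 called differences between 2 times, 3 passed in 12 of 12 alternatives and in 10 of 10 fits with a library left out (KLF15 at 240 min against 0 and 30 min, KLF11 from 30 to 240 min). The number of KLF genes called at 10 min was 1 with no filter and 1 with only the times compared, against 0. At 30 min it was 1 with DESeq2, 1 with only the times compared, and 0 with spike-in scaling and in the 3 limma fits, against 2, and 0 to 2 with a library left out. At 240 min against 0 min it was 1 with spike-in scaling and 2 with limma on log2(TPM + 1), with and without a filter, against 4. From 30 to 240 min it was 2 with spike-in scaling against 6. Over all times it was 2 with spike-in scaling, 3 with limma on log2(TPM + 1) and on log2(TPM + 0.1), and 2 with limma and no filter, against 6. Peaks above the median score left 1 KLF gene with a peak, against 3. The cause was not tested. With the replicate block, 2 KLF genes were called at 30 min, 4 at 240 min against 0 min, 6 from 30 to 240 min and 7 over all times, KLF13 being added.

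Over all genes, 46 were called at 30 min, against 4 with spike-in scaling, 8, 8 and 9 with limma, 96 with the likelihood ratio test and 160 with no filter, and 5676 at 240 min against 0 min, against 1059 with spike-in scaling. Depth limits KLF4, at 14 to 46 counts, most.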

Other observations

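Among the 10 KLF genes, log2 CPM over the 10 libraries ran together for KLF13 and KLF16 (Pearson r = 0.948), for KLF9 and KLF11 (r = 0.919) and for KLF9 and KLF15 (r = 0.835). KLF6 ran opposite to KLF11 (r = -0.823) and to KLF15 (r = -0.802). So did KLF3 to KLF11 (r = -0.812) and KLF16 to KLF15 (r = -0.8). KLF10 had a weaker r with KLF11, of 0.264. These values are over the same libraries and scaling, 2 of them at 240 min, and are given as a description.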
